A study of Homo sapiens with 9 samples.

Results

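The 10 genes described here carry, bind or read out the insulin-like growth factor (IGF) signal. They are the binding proteins IGFBP1, IGFBP3, IGFBP4, IGFBP6 and IGFBP7, the receptors IGF1R, IGF2R and INSR, and the receptor substrates IRS1 and IRS2. They were picked by name, with results in these libraries already known, and all 10 were found among the 24344 genes of the count table and passed the filter on low counts. Their fold changes are therefore given as descriptions, without p-values.

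The cells were MDA-MB-231, a human breast adenocarcinoma cell line of mesenchymal-like character. Cells received for 48 h Compound Kushen Injection (CKI, 2.0 mg/mL), which is made from the herbs Kushen and Baituling, or Kushen injection alone or Baituling injection alone at the matching ratio. Each treatment had 3 libraries, which the submitters call biological replicates. Untreated cells were not analysed here, so a gene that differs between treatments cannot be assigned to the treatment that moved it, and the 3 comparisons share libraries.

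IGF1 and IGF2 act through IGF1R, a receptor tyrosine kinase closely related to the insulin receptor INSR, with which it can form hybrid receptors. Both pass the signal to the docking proteins IRS1 and IRS2 and from there to PI3K and AKT, whereas IGF2R, the mannose 6-phosphate receptor, takes IGF2 to the lysosome. Secreted binding proteins hold the growth factors and limit or prolong their access to IGF1R, and proteases such as PAPPA release them. IGFBP3 is the main carrier in blood, IGFBP1 is a classic insulin- and stress-regulated liver product, IGFBP6 prefers IGF2, and IGFBP7 binds IGFs weakly and also binds insulin. MDA-MB-231 is known as a line that depends little on oestrogen receptor signalling, which in other breast lines drives IGF1R and IRS1.

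Of the 10 genes, 8 had a promoter window in RefSeq (GRCh38.p14). IGFBP1 and IGFBP7 had no entry. The 250 bases before the start site are shown for the binding proteins that differed most between the treatments and had a window, and for IRS2, which was highest under CKI. They are written 5′ to 3′ on the gene's strand, with capitals marking matches, on either strand, to the letters searched.

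IGFBP3, chr7:45921273-45921522, minus strand: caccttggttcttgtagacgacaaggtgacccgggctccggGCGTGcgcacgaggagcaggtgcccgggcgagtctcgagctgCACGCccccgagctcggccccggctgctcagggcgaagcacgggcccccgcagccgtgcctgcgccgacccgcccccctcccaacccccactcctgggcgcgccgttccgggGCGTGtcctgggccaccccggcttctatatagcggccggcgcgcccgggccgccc
IGFBP4, chr17:40443200-40443449, plus strand: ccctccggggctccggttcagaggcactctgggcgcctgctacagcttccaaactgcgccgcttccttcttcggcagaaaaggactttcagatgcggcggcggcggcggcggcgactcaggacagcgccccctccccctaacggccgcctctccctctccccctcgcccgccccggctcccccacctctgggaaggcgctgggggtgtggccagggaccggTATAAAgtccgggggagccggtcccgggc
IGFBP6, chr12:53097417-53097666, plus strand: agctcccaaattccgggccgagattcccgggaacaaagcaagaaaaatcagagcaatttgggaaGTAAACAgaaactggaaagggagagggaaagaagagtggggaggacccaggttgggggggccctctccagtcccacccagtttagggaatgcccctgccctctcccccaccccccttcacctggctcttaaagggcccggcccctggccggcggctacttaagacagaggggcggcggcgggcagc
IRS2, chr13:109786584-109786833, minus strand: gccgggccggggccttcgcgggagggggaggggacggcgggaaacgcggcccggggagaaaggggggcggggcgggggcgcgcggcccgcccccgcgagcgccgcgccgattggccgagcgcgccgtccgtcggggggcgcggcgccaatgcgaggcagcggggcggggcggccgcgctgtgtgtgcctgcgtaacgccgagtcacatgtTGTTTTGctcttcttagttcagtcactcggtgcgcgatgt

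Before IGFBP3 the capitals mark GCGTG, the core of the xenobiotic response element, at 3 places. Before IGFBP4 they mark TATAAA, and before IGFBP6 they mark GTAAACA, a forkhead-type match. Before IRS2 they mark the letters CAAAACA, found in the insulin response element, on the opposite strand. Among all 35116 RefSeq promoter windows of this length the first was present in 32.2%, the TATA-type letters in 10.7%, the forkhead-type letters in 2.98% and those of the insulin response element in 4.3%. The xenobiotic response core was also present before IGF1R and IRS1. The core of the hypoxia response element, ACGTG, held by 18.5% of windows, was present before IGF1R and IGF2R, and it shares its last 4 letters with the xenobiotic core. The AP-1 letters TGANTCA, held by 6.57% of windows, were in none of the 8. These matches are letters in a window and carry no measurement of binding.

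The libraries held 20144628 to 23782071 counts. Levels are in CPM, in which a gene's count is set against the library size, here adjusted by TMM (trimmed mean of M-values, a scaling that assumes most genes alike between libraries). The scaling factors were 1.08 to 1.10 under CKI, 1.02 to 1.05 under Kushen and 0.877 to 0.899 under Baituling. Scaling by library totals instead shifted the median of all genes (log2) by 0.08 for CKI to Kushen, 0.29 for CKI to Baituling and 0.21 for Kushen to Baituling, so differences are read on the TMM scale. CPM is a share of a library's RNA, so in these bulk samples fewer cells of one kind and less RNA per cell cannot be told apart. The markers of the line VIM, CD44, AXL, CAV1, KRT18 and MSN were abundant in every library, with a summed CPM of 2491 to 2603 under CKI, 3357 to 3370 under Kushen and 6119 to 6228 under Baituling. ESR1 (0 to 3 counts), PGR (0 to 4) and the epithelial cadherin CDH1 (11 to 51) were low. The summed CPM of 4 hepatocyte markers was 45.0 to 49.3 under CKI, 32.7 to 35.4 under Kushen and 43.3 to 46.8 under Baituling, nearly all of it SERPINA1, with ALB at 0 to 7 counts and TTR at 0 to 1. The endothelial marker CDH5 had 0 to 3 counts, and of the leukocyte markers PTPRC had 0 to 9 counts, CD3E 0 to 4 and CD14 116 to 215. ERBB2, GATA3 and EPCAM, listed as low in this line, were detected, ERBB2 at a mean of 56.8 CPM under CKI, 64.1 under Kushen and 104 under Baituling. The part of any of these in the results was not tested.

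Among the binding proteins the Baituling libraries stood above those of CKI and Kushen, which does not say which treatment moved these genes. IGFBP1, IGFBP3, IGFBP4, IGFBP6 and IGFBP7 all had their highest CPM in the 3 Baituling libraries, while IGFBP3, IGFBP4 and IGFBP7 were lowest under CKI.

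IGFBP1 (ENSG00000146678, chr7:45927959-45933259 of GRCh37, plus strand) spanned the widest range. Its CPM was 5.96, 4.96 and 5.77 in CKI libraries 1 to 3, 5.15, 4.68 and 3.28 under Kushen, and 81.6, 76.6 and 74.6 under Baituling, from 74 to 1673 counts. The CKI and Kushen libraries overlapped and the Baituling libraries lay far above both. The level under Baituling was 13.9-fold that under CKI and 17.6-fold that under Kushen, with log2 fold changes of -3.80 ± 0.09 (SE, 95% interval -4.00 to -3.61) for CKI versus Baituling and -4.14 ± 0.10 (-4.34 to -3.94) for Kushen versus Baituling. Between CKI and Kushen the log2 fold change was 0.34 ± 0.13 (0.06 to 0.62), and 0.17 without Kushen library 3, the lowest of its group.

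IGFBP3 (chr7:45951844-45961473, minus strand) lies next to IGFBP1, with 18584 bases and 0 genes of the table between them, and the genes point towards each other. Its pattern was graded rather than split. The CPM was 68.8, 71.1 and 74.0 under CKI, 97.1, 101 and 104 under Kushen and 157, 160 and 157 under Baituling. The 3 groups did not overlap in any pair. CKI versus Kushen gave a log2 fold change of -0.50 ± 0.04, CKI versus Baituling -1.15 ± 0.04 and Kushen versus Baituling -0.65 ± 0.04. On the scale of library totals CKI versus Baituling stood at -0.86.

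IGFBP4 (chr17:38599702-38613977, plus strand), an inhibitory binding protein and the main substrate of PAPPA, was the most abundant of the 10 genes. Its CPM was 1413, 1494 and 1557 under CKI, 1934, 2076 and 2155 under Kushen and 4344, 4054 and 3917 under Baituling. As for IGFBP3, the groups stood in the order CKI, Kushen, Baituling without overlap. CKI versus Kushen gave a log2 fold change of -0.47 ± 0.05 and CKI versus Baituling -1.46 ± 0.05, a level 2.76-fold higher under Baituling. Kushen versus Baituling gave -0.998 ± 0.05, which is just inside the bound of 1. Without Kushen library 2 or 3, or Baituling library 2 or 3, it was between -1.01 and -1.03, and with library totals it was -0.79.

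IGFBP6 (chr12:53491220-53496129, plus strand) had the split pattern of IGFBP1. The CPM was 19.8, 17.2 and 19.6 under CKI, 17.5, 18.3 and 18.4 under Kushen and 70.1, 65.3 and 63.7 under Baituling. CKI and Kushen overlapped, with a log2 fold change of 0.06 ± 0.07 (-0.08 to 0.21). Baituling was above both, with -1.81 ± 0.06 for CKI and -1.88 ± 0.06 for Kushen.

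IGFBP7 (chr4:57896939-57976551, minus strand) varied least among the binding proteins. The CPM was 399, 395 and 413 under CKI, 491, 499 and 486 under Kushen and 576, 536 and 545 under Baituling. The 3 groups did not overlap, but the steps were small. CKI versus Kushen gave a log2 fold change of -0.29 ± 0.04, CKI versus Baituling -0.46 ± 0.04 and Kushen versus Baituling -0.17 ± 0.04, and on the scale of library totals the last 2 were -0.17 and 0.044. IGFBP7-AS1, POLR2B and UBE2CP3 overlap it on the opposite strand, and the libraries were unstranded, so reads of these genes cannot be told apart where they overlap.

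**Figure D1:**
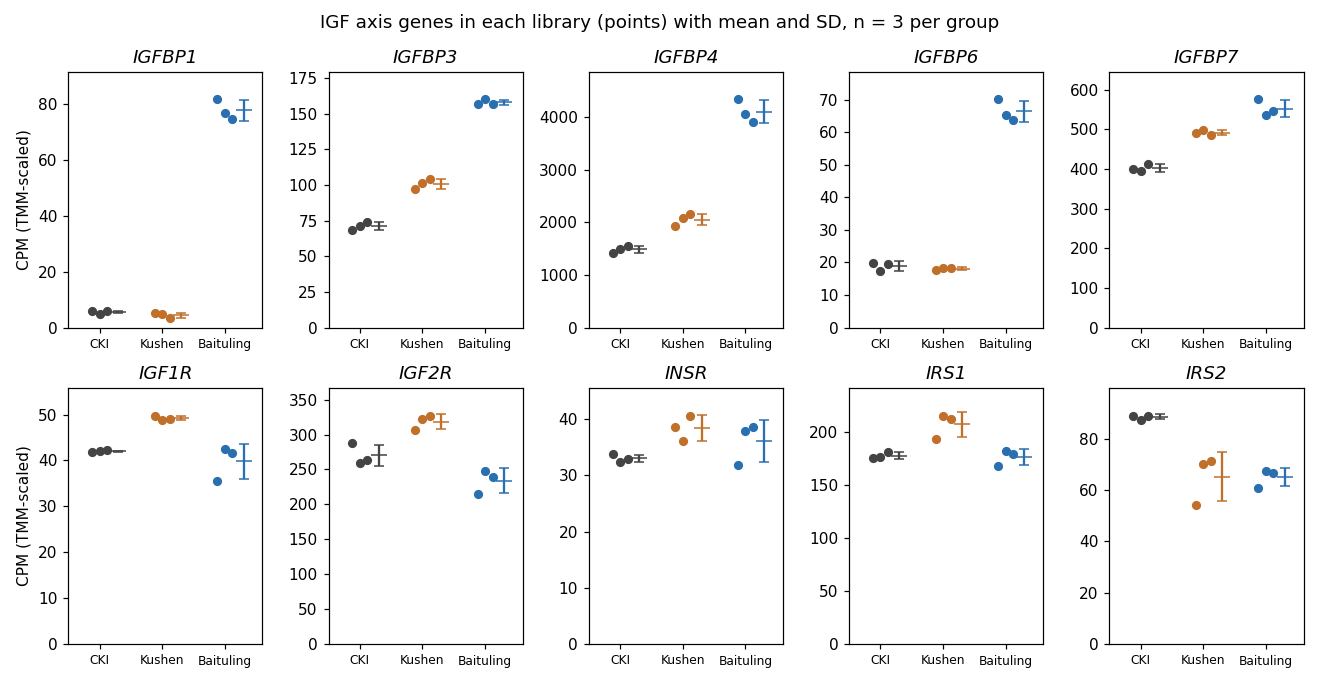
CPM (linear axis from 0) of the 10 genes in each library, 1 panel per gene, with the mean and SD of the 3 libraries per treatment beside the points. The Baituling libraries stand highest in all 5 binding protein panels, at 74.6 to 81.6 CPM for IGFBP1 against 3.28 to 5.96 in the other 6 libraries.

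The receptors were nearly level across treatments by comparison. IGF1R (chr15:99191768-99507759, plus strand) had a CPM of 41.9, 42.0 and 42.2 under CKI, 49.8, 48.9 and 49.1 under Kushen and 35.5, 42.4 and 41.6 under Baituling. Kushen was above the other groups without overlap, while the CKI libraries lay within the Baituling range. CKI versus Kushen gave a log2 fold change of -0.23 ± 0.06, CKI versus Baituling 0.08 ± 0.06 and Kushen versus Baituling 0.31 ± 0.06.

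INSR (chr19:7112266-7294425, minus strand) had a CPM of 33.7, 32.4 and 33.0 under CKI, 38.7, 36.1 and 40.7 under Kushen and 31.8, 37.9 and 38.6 under Baituling. Only CKI and Kushen did not overlap, at a log2 fold change of -0.22 ± 0.07. The 95% intervals against Baituling included 0, at -0.27 to 0.02 for CKI and -0.05 to 0.24 for Kushen.

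IGF2R (chr6:160390114-160534539, plus strand) had a CPM of 287, 259.9 and 264 under CKI, 306, 323 and 327 under Kushen and 215, 248 and 239.7 under Baituling. The order was Kushen, CKI, Baituling, and no pair of groups overlapped. CKI versus Kushen gave a log2 fold change of -0.24 ± 0.05, CKI versus Baituling 0.21 ± 0.05 and Kushen versus Baituling 0.44 ± 0.05. The antisense gene AIRN overlaps IGF2R, and SYNM-AS1 and 2 unnamed genes overlap IGF1R, on the opposite strand, as an unnamed gene (ENSG00000275741) overlaps IRS2, so the same limit of unstranded reads holds for these 3 genes.

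The receptor substrates did not move together. IRS1 (chr2:227596028-227664536, minus strand) had a CPM of 176, 177 and 182 under CKI, 194, 216 and 213 under Kushen and 168, 182 and 179.8 under Baituling. Kushen was above the rest, and CKI and Baituling overlapped with a log2 fold change of 0.01 ± 0.05 (-0.09 to 0.11). IRS2 (chr13:110405042-110438930, minus strand) had 89.2, 87.6 and 89.2 CPM under CKI, 54.3, 70.4 and 71.4 under Kushen and 61.0, 67.6 and 66.6 under Baituling. It was the single gene of the 10 with its highest level under CKI, above every other library. The log2 fold change of IRS2 was 0.44 ± 0.07 against Kushen and 0.45 ± 0.07 against Baituling. Without Kushen library 1, the lowest of its group, the value against Kushen was 0.32. Kushen and Baituling overlapped for IRS2, at 0.01 ± 0.08.

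Baituling library 1 was the lowest of its group for all 5 receptor and substrate genes. Without it the log2 fold change of CKI versus Baituling was 0.00 for IGF1R, 0.15 for IGF2R, -0.21 for INSR, -0.02 for IRS1 and 0.40 for IRS2, and that for IGFBP1 was -3.76. With library totals the same comparison gave 0.37 for IGF1R, 0.49 for IGF2R, 0.16 for INSR, 0.30 for IRS1 and 0.73 for IRS2.

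Set against both single-herb injections, CKI had a mean CPM below both for IGFBP3, IGFBP4, IGFBP7 and INSR, above both for IRS2 and between them for IGFBP1, IGFBP6, IGF1R, IGF2R and IRS1. For INSR the 3 CKI libraries lay within the Baituling range. Of the genes between, CKI overlapped Kushen for IGFBP1 and IGFBP6 and overlapped Baituling for IGF1R and IRS1. Only IGF2R lay between without overlap.

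A gene is called when its adjusted p is under 0.05 in edgeR's quasi-likelihood test over 14195 genes and its log2 fold change lies past 1 or -1. In CKI versus Kushen 0 of the 10 were called, beside 1.7% of all genes called higher and 0.197% lower under CKI, and no log2 fold change of the 10 was past the bound in edgeR or DESeq2. In CKI versus Baituling IGFBP1, IGFBP3, IGFBP4 and IGFBP6 were called lower under CKI and 0 higher, beside 7.91% of all genes lower and 11.2% higher. In Kushen versus Baituling IGFBP1 and IGFBP6 were called lower under Kushen and 0 higher, beside 6.73% lower and 8.5% higher. The median log2 fold change of the 10 genes was -0.22, -0.29 and -0.08 in the 3 comparisons in that order, beside 0.01, 0.03 and 0.02 over all genes tested. Because the genes were chosen with these comparisons known, nothing follows from these counts or medians. Just past the bound in CKI versus Baituling stood IGFBP3 at -1.15, and the next gene inside it was IGFBP7 at -0.46.

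**Figure D2:**
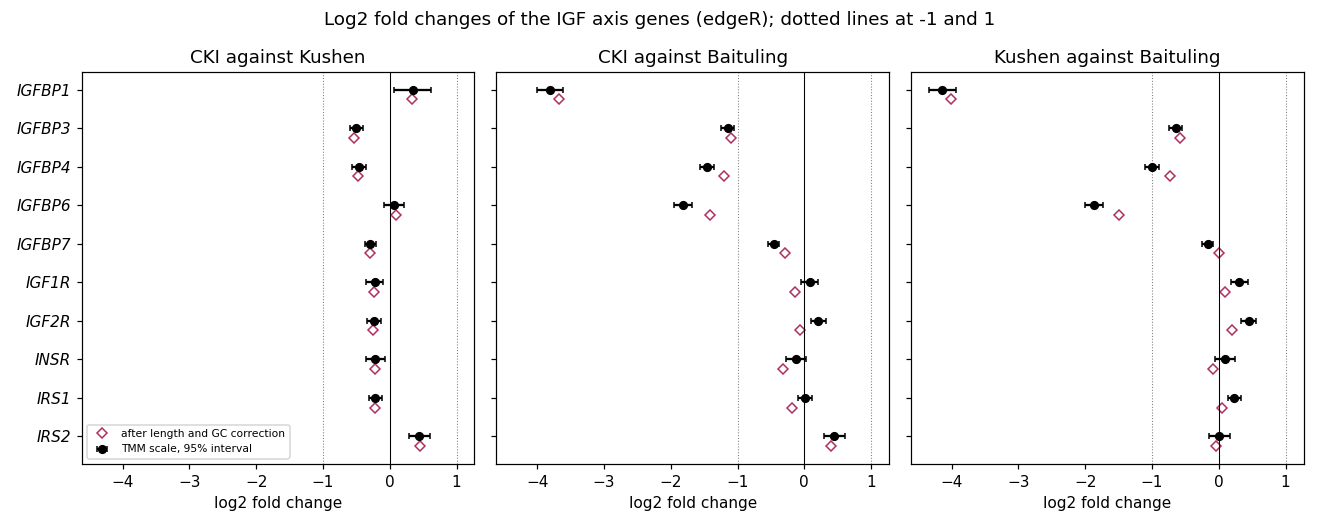
Log2 fold change of the 10 genes in the 3 comparisons (filled points, bars for the 95% interval) and after a correction for transcript length and GC content (open diamonds), with dotted lines at -1 and 1. IGFBP1 stands farthest from 0, at -3.80 and -4.14 against Baituling, and the receptor and substrate genes lie within 0.45 of 0.

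To compare genes with each other, CPM was divided by the length of the canonical transcript in kilobases. On this scale IGFBP4 led in every treatment, with 675 ± 32.8 (SD, n = 3) CPM per kb under CKI, 932 ± 50.8 under Kushen and 1862 under Baituling. IGFBP7 followed with 282, 345 and 387. The order below these differed between treatments.

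In CKI, IGFBP3 (27.3 CPM per kb) was followed by IGFBP6 (19.9), IGF2R (19.2), IRS1 (18.2), IRS2 (10.9), IGFBP1 (3.67), INSR (3.49) and IGF1R (3.44). The libraries of neighbours overlapped for IGFBP6 and IGF2R, IGF2R and IRS1, IGFBP1 and INSR, and INSR and IGF1R. In Kushen IGFBP3 (38.6 CPM per kb) came before IGF2R, IRS1, IGFBP6 (19.1) and IRS2 (8.01). There IGFBP1 was the lowest of the 10, at 2.89 CPM per kb, below INSR (4.07) and IGF1R (4.03), which overlapped, as did IGF2R (22.7) and IRS1 (21.2). In Baituling IGFBP6 (70.1 CPM per kb), IGFBP3 (60.5) and IGFBP1 (51.3) all stood above IRS1 (18.1) and IGF2R (16.7), which overlapped, IRS2 (7.98) came next, and INSR (3.82) and IGF1R (3.26) were lowest and overlapped. IGFBP1 thus ranked with the receptors under CKI and Kushen and with the binding proteins under Baituling.

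The 5 binding protein transcripts summed to 1008 ± 38.4 CPM per kb under CKI, 1337 ± 51.3 under Kushen and 2431 ± 117 under Baituling. Leaving out IGFBP4, the sum was 333 ± 8.36, 405 ± 4.87 and 569 ± 19.7. The make-up of the sum also differed. IGFBP4 took 67.0% ± 0.880 of it under CKI, 69.7% ± 1.17 under Kushen and 76.6% ± 0.446 under Baituling, and IGFBP7 took 28.0%, 25.8% and 15.9%. The share of IGFBP1 was 0.365% ± 0.039 under CKI, 0.217% ± 0.055 under Kushen and 2.11% ± 0.004 under Baituling. The share of IGFBP3 was 2.71%, 2.89% and 2.49%, and that of IGFBP6 was 1.98%, 1.43% and 2.88%.

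**Figure D3:**
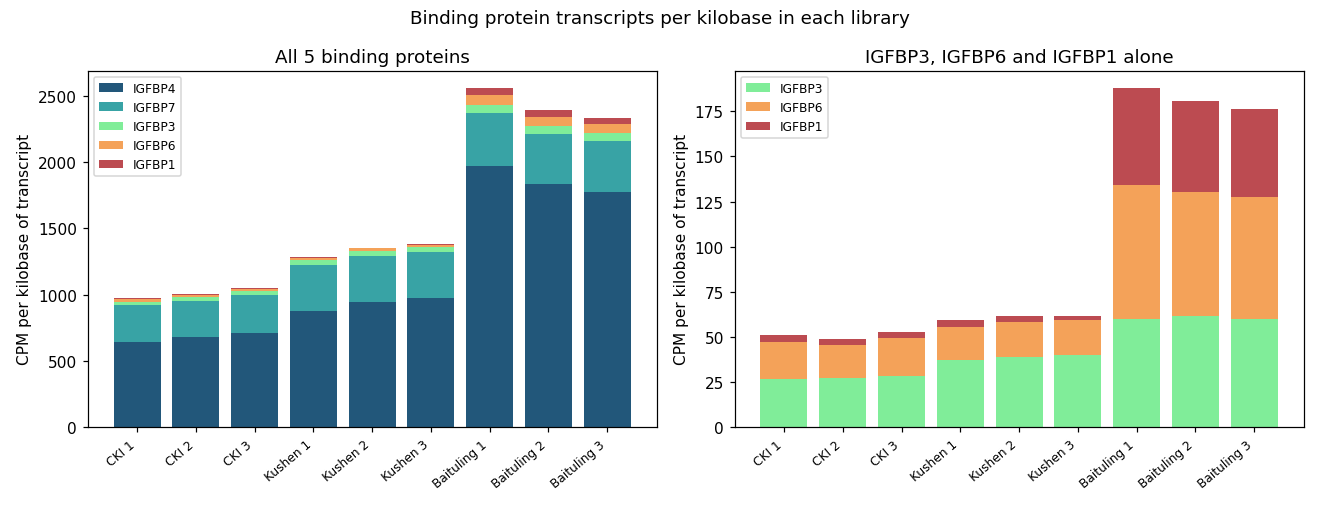
CPM per kilobase of transcript of the binding protein genes, stacked for each library, with all 5 on the left and IGFBP3, IGFBP6 and IGFBP1 alone on the right (each axis from 0). The stack is tallest in the 3 Baituling libraries, at 2335 to 2562, and IGFBP4 is the largest piece in every library.

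On the side of the receptors, the ratio of IGF1R to INSR per kb was 0.985 ± 0.021 under CKI, 0.993 ± 0.057 under Kushen and 0.854 ± 0.018 under Baituling. IGF2R exceeded IGF1R by 5.59, 5.63 and 5.12 times. The ratio of IRS1 to IRS2 was 1.68 ± 0.026 under CKI, 2.68 ± 0.262 under Kushen and 2.27 ± 0.025 under Baituling, so IRS2 made up more of the substrate transcripts under CKI than in either single-herb injection, in all 3 libraries.

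The receptor and binding protein genes differ in a property the choice did not use. The canonical transcripts of the 5 receptor and substrate genes are 8156 to 14061 bases long, and those of the 5 binding proteins 947 to 2613 bases. Among all genes tested, the fold change against Baituling moved with transcript length. In CKI versus Baituling the median log2 fold change was -0.16 for genes up to 2000 bases, 0.00 for those over 2000 and up to 4000, 0.13 up to 8000 and 0.29 for those over 8000. In Kushen versus Baituling the medians were -0.16, -0.03, 0.12 and 0.27, and in CKI versus Kushen they stayed between -0.01 and 0.02. In the class over 8000 bases, 67.7% of the 1181 genes were higher under CKI than under Baituling.

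When each library was centred on genes of like length and GC content, the binding proteins kept their direction in CKI versus Baituling, at log2 fold changes of -3.68 for IGFBP1, -1.10 for IGFBP3, -1.21 for IGFBP4, -1.41 for IGFBP6 and -0.29 for IGFBP7. IGF1R turned from 0.08 to -0.14, IGF2R from 0.21 to -0.058 and IRS1 from 0.01 to -0.18, and INSR moved from -0.13 to -0.31. IRS2 remained higher under CKI, at 0.40. In Kushen versus Baituling IGFBP7 was at 0.00 and IGFBP4 at -0.73 after the correction, while IGF1R shrank from 0.31 to 0.098, IGF2R from 0.44 to 0.19 and IRS1 from 0.23 to 0.046, and INSR turned from 0.09 to -0.088. In CKI versus Kushen the correction moved the 10 genes little, IGFBP3 from -0.50 to -0.53 and IGFBP6 from 0.06 to 0.09. Whether length as such takes part in the differences was not tested.

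**Figure D4:**
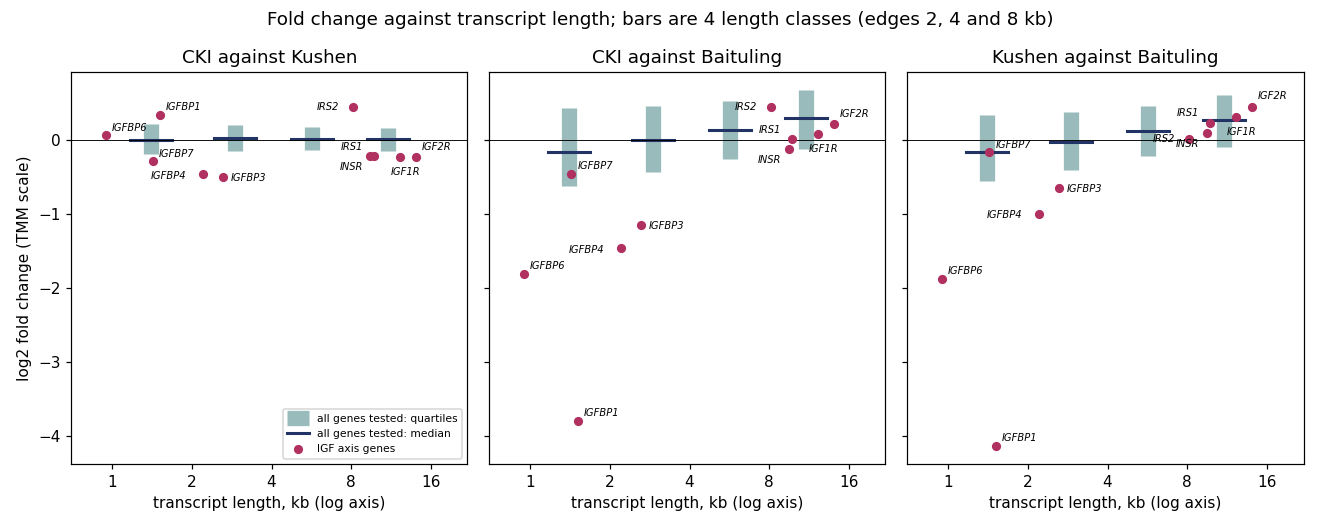
Log2 fold change of the 10 genes (points) against canonical transcript length (log axis), with the median (line) and quartiles (bar) of all genes tested in 4 length classes. The class medians climb from -0.16 to 0.29 in CKI versus Baituling, where IGFBP1 and IGFBP6 stand well below the bar of their class and IGF1R, IGF2R, INSR and IRS1 lie below the median of theirs.

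Of the growth factors themselves, IGF1 was scarcely detected, with 0 or 1 count per library. INS had 0 in all 9, and IGF2 was not analysed here. A count of 0 allows up to 3 counts in a library. Of the binding proteins outside the 10, IGFBP2 had 0 to 13 counts, IGFBP5 0 to 4 and IGFALS, the acid-labile subunit that stabilises IGFBP3 complexes, 0 to 5, all below the filter. IGFBPL1 was the only other binding protein tested, and its log2 fold change was -0.34, -0.39 and -0.05 in the 3 comparisons, with overlapping libraries in each.

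Other genes of the pathway were listed by role, of which 91 of 94 were in the table and 79 were tested. They were tested by edgeR over all genes with Benjamini-Hochberg adjustment. The lists were made with earlier results of these data known, and the genes named below were picked for large changes. Their adjusted p-values are therefore descriptions and no independent test. In CKI versus Kushen 0 were called in edgeR, where no log2 fold change was past the bound at any p, and 0 in DESeq2, and by edgeR's adjusted p alone 30 were higher under CKI and 15 lower, 38% and 19.0% beside 19.6% and 20.2% of all genes. In CKI versus Baituling 9 were called higher and 5 lower, which is 17.7% of them beside 19.1% of all genes, and by adjusted p alone 43 were higher and 25 lower, 54.4% and 31.6% beside 39.1% and 37.0%. In Kushen versus Baituling 8 were called higher and 6 lower, 17.7% beside 15.2% of all, and by adjusted p alone 37 and 25, 46.8% and 31.6% beside 35.6% and 36.1%.

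Of the 8 proteases and stanniocalcins, which control the cleavage of binding proteins, 3 were called higher and 1 lower in CKI versus Baituling (50.0% beside 19.1% of all genes), and 3 higher and 2 lower in Kushen versus Baituling (62.5% beside 15.2%). PAPPA, the protease of IGFBP4, had a CPM of 13.2, 13.2 and 13.0 under CKI, 10.1, 11.2 and 10.6 under Kushen and 22.9, 26.3 and 25.01 under Baituling, so like its substrate it was highest under Baituling. Its log2 fold change was -0.91 ± 0.07 against Baituling for CKI (edgeR adjusted p = 1.23e-09) and -1.21 ± 0.08 for Kushen (edgeR adjusted p = 3.87e-11), and 0.30 ± 0.08 in CKI versus Kushen (edgeR adjusted p = 0.00601), where IGFBP4 was lower. After the length and GC correction PAPPA in CKI versus Baituling was at -1.17, past the bound. STC2, a stanniocalcin that inhibits PAPPA, was lowest under Baituling, at 4.98, 3.59 and 4.15 CPM under CKI, 3.34, 2.17 and 2.48 under Kushen and 1.17, 1.15 and 1.32 under Baituling. The log2 fold change of STC2 was 1.80 ± 0.21 in CKI versus Baituling (edgeR adjusted p = 2.56e-07) and 1.13 ± 0.23 in Kushen versus Baituling (edgeR adjusted p = 0.000206), and the latter was 0.93 without Kushen library 1. In CKI versus Kushen STC2 was higher, as PAPPA was, at 0.67 ± 0.17 (edgeR adjusted p = 0.00502). STC1, the other stanniocalcin listed, was named after its values were seen. It had 4249 to 4431 counts under CKI, 2529 to 2858 under Kushen and 2169 to 2318 under Baituling, and was not called.

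ADAM12, a protease of IGFBP3 and IGFBP5, had log2 fold changes of 1.45 ± 0.21 in CKI versus Baituling (edgeR adjusted p = 4.48e-06) and 1.06 ± 0.22 in Kushen versus Baituling (edgeR adjusted p = 0.000304), from 19 to 28 counts under Baituling and 53 to 91 elsewhere. The second value was 0.94 without Baituling library 1 and 0.98 without Baituling library 2, and 0.87 after the length and GC correction. ADAM28, a related protease of IGFBP3, had 2.10 ± 0.23 (edgeR adjusted p = 6.44e-08) and 1.62 ± 0.24 (edgeR adjusted p = 4.93e-06). All 3 of STC2, ADAM12 and ADAM28 were low in every library, under 7 CPM. PAPPA2, still rarer, was called lower than Baituling in both comparisons, at -1.31 and -1.78, and lies outside the naming rule, as do GRB14 (1.55 and 2.36) and FOXO4 (1.48 and 1.14), which were named after their values were seen.

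Of the 20 adaptors and attenuators, 1 was called higher and 2 lower in CKI versus Baituling (15% beside 19.1% of all genes), and 1 higher and 3 lower in Kushen versus Baituling (20% beside 15.2%). SOCS1, an inhibitor of cytokine receptor signalling that also targets IRS proteins, had 3.49, 3.83 and 3.20 CPM under CKI, 2.17, 2.79 and 2.44 under Kushen and 19.6, 17.1 and 16.5 under Baituling. RMI2 overlaps SOCS1 on the opposite strand, so the limit of unstranded reads holds here too. Genes on the opposite strand also overlap PAPPA, ADAM12, ADAM28, SOCS2, DEPTOR, BCL6, SESN3, PDK4 and TNFSF10. The log2 fold change of SOCS1 was -2.34 ± 0.11 in CKI versus Baituling (edgeR adjusted p = 4.79e-13) and -2.84 ± 0.12 in Kushen versus Baituling (edgeR adjusted p = 1.08e-13). SOCS2, an inhibitor of growth hormone signalling, had -1.02 ± 0.06 and -1.10 ± 0.06 (edgeR adjusted p = 7.29e-12 and 4.15e-12), and the first was -0.99 without Baituling library 1. TRIB3, a pseudokinase that can bind AKT, had -1.06 ± 0.06 in Kushen versus Baituling (edgeR adjusted p = 1.97e-12) and 0.56 ± 0.06 in CKI versus Kushen (edgeR adjusted p = 2.6e-07). With library totals the bound was no longer passed by SOCS2, at -0.73 and -0.89, or by TRIB3, at -0.85. After the length and GC correction TRIB3 in Kushen versus Baituling was at -0.82, also inside the bound.

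Of the 27 genes of the PI3K, AKT and mTOR list, 1 was called higher and 1 lower in CKI versus Baituling, 7.41% beside 19.1% of all genes, and 1 higher and 0 lower in Kushen versus Baituling, 3.7% beside 15.2%. DEPTOR, an mTOR inhibitor, had log2 fold changes of 1.58 ± 0.18 in CKI versus Baituling (edgeR adjusted p = 1.48e-07) and 1.56 ± 0.18 in Kushen versus Baituling (edgeR adjusted p = 2.49e-07), and 0.02 ± 0.14 in CKI versus Kushen. DEPTOR was low in every library, with 21 to 33 counts under Baituling and 88 to 106 elsewhere. EIF4EBP1, the translation repressor that mTOR switches off, had -1.01 ± 0.06 in CKI versus Baituling (edgeR adjusted p = 2.71e-12). This value was -0.97 without CKI library 1, -0.96 without Baituling library 1, -0.72 with library totals and -0.64 after the length and GC correction. In Kushen versus Baituling EIF4EBP1 lay just inside the bound, at -0.95 ± 0.06 (edgeR adjusted p = 9.65e-12), and in CKI versus Kushen it was at -0.06 ± 0.06.

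AKT holds down FOXO proteins, and the activity of neither was measured here. Of the 21 FOXO genes and textbook targets, 4 were called higher and 1 lower in CKI versus Baituling (23.8% beside 19.1% of all genes). By adjusted p alone 16 were higher and 4 lower, 76.2% and 19.0% beside 39.1% and 37.0%. Their median log2 fold change was 0.61, beside 0.03 for all genes, and 0.45 after the length and GC correction. SESN3, a sestrin, had 36.3, 35.5 and 32.2 CPM under CKI, 37.1, 37.3 and 37.3 under Kushen and 8.20, 8.88 and 8.06 under Baituling. The CKI and Baituling libraries of SESN3 did not overlap, at a log2 fold change of 2.05 ± 0.07 (edgeR adjusted p = 4.94e-15). PDK4, which slows the entry of pyruvate into the mitochondrial cycle, had 1.95 ± 0.08 (edgeR adjusted p = 5.9e-14), and BCL6, a transcriptional repressor, 1.56 ± 0.06 (edgeR adjusted p = 3.34e-15). TNFSF10, the death ligand TRAIL, ran opposite at -1.75 ± 0.05 (edgeR adjusted p = 1.12e-16), with 64.3, 62.9 and 68.4 CPM under CKI, 92.4, 88.0 and 86.8 under Kushen and 217, 230.2 and 210.0 under Baituling. In Kushen versus Baituling 3 of the 21 were called higher and 1 lower (19.0% beside 15.2% of all genes).

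The 2 IGF2 mRNA-binding proteins tested, IGF2BP2 and IGF2BP3, were not called in any comparison and their libraries overlapped in all. By adjusted p alone 1 of the 2 was higher in CKI versus Baituling, 50.0% beside 39.1% of all genes. IGF2BP2 had a log2 fold change of 0.00 ± 0.05 in CKI versus Baituling.

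**Figure D5:**
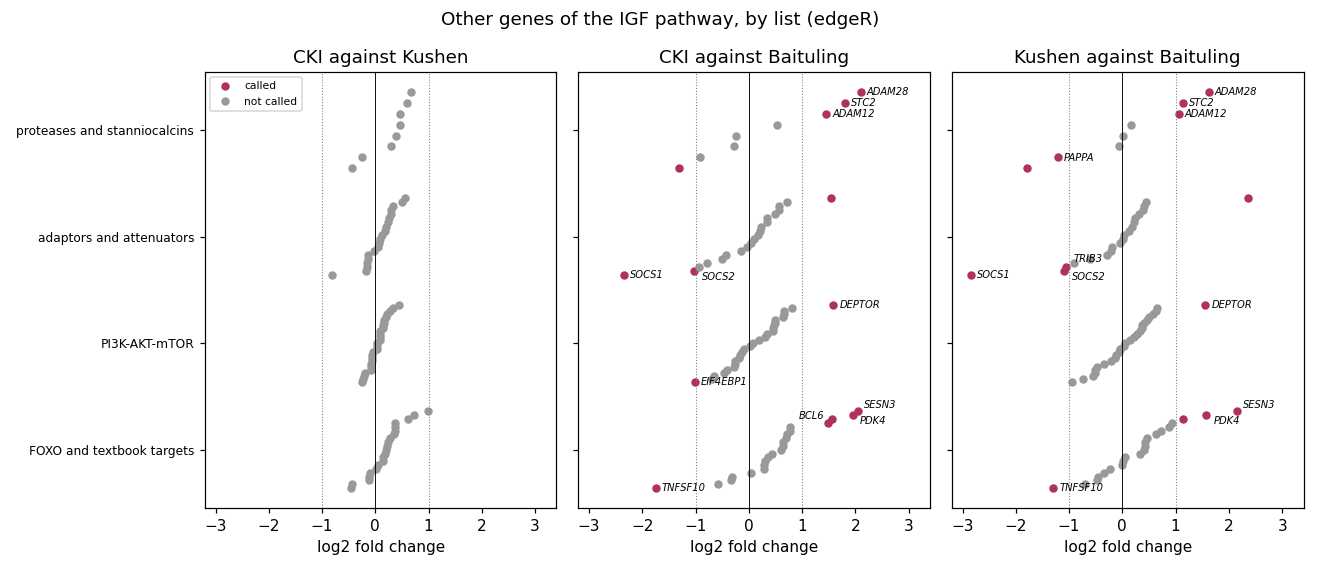
Log2 fold change of the other pathway genes in 4 lists, 1 point per gene ordered by value within its list, with called genes in red and dotted lines at -1 and 1. Names are given for called genes under the naming rule (PAPPA2, GRB14 and FOXO4 are red without a name), SOCS1 is lowest at -2.34 and -2.84 against Baituling, and no point in CKI versus Kushen is called.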

How the data were processed

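Total RNA of 9 MDA-MB-231 libraries was sequenced as unstranded paired-end reads. The authors trimmed the reads with Trim Galore 0.3.7, aligned them with STAR 2.5.3a to hg19 and deposited raw whole-number counts per gene, without normalization. The counting program and annotation are not given in the sources used here. Of 24566 rows, 222 repeated an Ensembl gene with identical counts and were dropped. Symbols, positions and canonical transcript lengths were taken from GENCODE on GRCh37, the assembly of hg19 (24224 genes, and 99 named from RefSeq).

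Library groups came from the labels. Genes were filtered by filterByExpr in edgeR 4.0.16 (R 4.3.3, minimum count 10, minimum total 15), which left 14195 of 24344 genes. All 9 libraries entered 1 two-sided quasi-likelihood fit with TMM scaling and group as the only term, and p-values were Benjamini-Hochberg adjusted over all genes tested. Genes were called at an adjusted p under 0.05 and a log2 fold change past 1 or -1. The common biological coefficient of variation was 4.53%. The fit was tested on simulated data. With 20144628 to 23782071 counts per library, counting error among the 10 genes was largest for IGFBP1, at 74 to 152 counts in CKI and Kushen. IGFBP6 came next, at 415 to 504 counts in CKI and Kushen. With 3 libraries a group, the lowest p of an exact permutation test is 0.1.

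The 10 genes and all lists were chosen with earlier results of these data known. All 10 are named, with IGF1, IGF2, INS, IGFBP2, IGFBP5 and IGFALS, and per list up to 4 genes with the largest change among those called in any comparison, averaging a log2 CPM of 1 or more, whose libraries did not overlap between the groups. Marker and motif lists served as descriptions. Replicate pairs differed by 1.70 to 6.85 in chi-square per gene (9 pairs), so no library was a copy of another. Alternatives were other scalings, DESeq2 1.42.0, other filters, 2 groups alone, a replicate block, each library left out, and a loess correction for length and GC content (span 0.3) added after seeing the data.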

Additional observations from a re-analysis of the deposited data

How the results depend on the processing

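The 4 binding proteins called in CKI against Baituling kept their direction under all alternatives run, and IGFBP3 was at -0.86 with library totals. IGFBP4 in Kushen against Baituling lay on the bound, just inside it in the edgeR test reported and just past it with RLE factors, DESeq2, no filter or the replicate block, and from -1.03 to -0.95 with 1 library left out. Directions turned for IGFBP7 in Kushen against Baituling (0.044 with library totals, 0.0010 with the length and GC correction). With that correction they also turned in CKI against Baituling for IGF1R (-0.14), IGF2R (-0.058) and IRS1 (-0.18), and in Kushen against Baituling for INSR (-0.088) and IRS2 (-0.047). Its own construction removes the shift of long genes. INSR in CKI against Baituling was at 0.16 with library totals. IRS1 in the same comparison, near 0, was at -0.0060 with RLE factors and with DESeq2, and from -0.025 to 0.031 with 1 library left out. With 1 library left out IGF1R there ranged from -0.00035 (without Baituling replicate 1) to 0.12, and it was at 0.37 with library totals. With 1 library left out IRS2 in Kushen against Baituling ranged from -0.052 to 0.12. DEPTOR in CKI against Kushen ranged from -0.021 to 0.044 with 1 library left out and was at -0.0050 with the length and GC correction, and EIF4EBP1 there was at 0.015 with library totals. Of the values recomputed for the 10 genes, 515 kept direction and side of the threshold, 8 passed it, 1 fell short and 16 turned, and for the other named genes 678, 3, 18 and 3.

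Requiring 10 counts in every library left 102, 1808 and 1415 genes called in place of 270, 2715 and 2162 in CKI against Kushen, CKI against Baituling and Kushen against Baituling, with 12735 genes tested. In CKI against Baituling this made 885 higher and 923 lower in place of 1592 and 1123, and library totals made 2527 and 630. In Kushen against Baituling the filter made 668 and 747 in place of 1207 and 955, and library totals 1813 and 618. Of the other pathway genes in CKI against Kushen, 1 was called with library totals, and 0 to 1 with 1 library left out (1 without CKI replicate 2 or Kushen replicate 3). This gene was GADD45A, at 0.99 with TMM and all libraries and named after its values were seen.

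Same-numbered libraries deviated with correlations of -0.07 to 0.12, and different numbers gave -0.15 to 0.18. No pairing by number was seen, though these few pairs cannot show that libraries of the same number were handled apart. With the replicate block 269, 2713 and 2158 genes were called, with 0, 4 and 3 of the 10 genes and 0, 14 and 14 of the other pathway genes.

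No untreated libraries were analysed, each treatment was given to 1 cell line at 1 time and dose, and transcript levels say nothing of secreted or bound protein. Genes of few counts, such as ADAM12, STC2, DEPTOR and GRB14, carry the largest errors.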
